A study of Homo sapiens with 3 samples.

Results

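Wide distal accessible regions are stretches of open chromatin at least 1500 bp across whose middle lies more than 5 kb and at most 200 kb from the nearest outer end of any RefSeq gene. They were found by ATAC-seq, in which the Tn5 transposase inserts adapters into accessible DNA, in neurons grown out of KOLF2.1J, a reference line of human induced pluripotent stem cells. The line carried human NGN2, a proneural transcription factor, and all 3 biological replicates were collected after 14 days of neuronal differentiation. The replicates form 1 group with no untreated or undifferentiated control, the labels name 1 line and not whether several clones were used, and the list analysed here pools the 3 samples, so no value or spread between samples can be given. The regions were chosen by their measured width and by position. Of 37282 distal regions in that distance range, 1612 were this wide (4.32%, 95% Wilson interval 4.12 to 4.54%), out of 65234 distinct regions in the list. The remaining 35670 distal regions, all narrower, are the comparison.

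Open chromatin at enhancers and promoters is a gap between nucleosomes kept clear by bound transcription factors. A single such gap is usually narrower than the regions described here, and a wide region can hold several gaps side by side. A gene can also be transcribed from alternative promoters that lie deep inside its longest transcript. Such internal start sites are common in long neuronal genes, and many promoters of both kinds are rich in CpG dinucleotides and poor in DNA methylation. The distance rule used only the outer ends of genes, so an internal start could lie inside a region that the rule counts as distal.

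The 250 bases just before an annotated internal start are shown for 7 wide distal regions. They are printed because a wide region held a start more often than a narrower one, and the starts differed in base composition. The first 5 are rich in CpG and the last 2 are poor in it, and the capitals mark CpG dinucleotides. All are RefSeq sequences of GRCh38.p14, written 5′ to 3′ on the strand of the gene. TENM3 encodes a teneurin adhesion receptor, PSD2 an exchange factor for the small GTPase ARF6, PDE10A a cyclic nucleotide phosphodiesterase, THNSL1 a threonine synthase-like protein and RTN4 the membrane protein Nogo. DNAJB4 encodes a heat shock protein 40 co-chaperone and DLG2 the postsynaptic scaffold PSD-93.
TENM3 (chr4:182448766-182449015, plus strand): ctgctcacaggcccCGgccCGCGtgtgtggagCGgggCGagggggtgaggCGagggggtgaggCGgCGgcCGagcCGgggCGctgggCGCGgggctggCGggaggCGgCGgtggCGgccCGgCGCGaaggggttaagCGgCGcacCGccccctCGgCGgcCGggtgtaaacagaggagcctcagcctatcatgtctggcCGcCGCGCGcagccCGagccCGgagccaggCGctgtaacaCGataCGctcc
PSD2 (chr5:139795558-139795807, plus strand): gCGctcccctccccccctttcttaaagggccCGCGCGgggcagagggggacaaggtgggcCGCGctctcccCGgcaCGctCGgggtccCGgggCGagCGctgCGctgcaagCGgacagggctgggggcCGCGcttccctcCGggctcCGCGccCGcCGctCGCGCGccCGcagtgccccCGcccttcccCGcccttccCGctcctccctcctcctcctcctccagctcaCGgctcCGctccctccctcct
PDE10A (chr6:165663242-165663491, minus strand): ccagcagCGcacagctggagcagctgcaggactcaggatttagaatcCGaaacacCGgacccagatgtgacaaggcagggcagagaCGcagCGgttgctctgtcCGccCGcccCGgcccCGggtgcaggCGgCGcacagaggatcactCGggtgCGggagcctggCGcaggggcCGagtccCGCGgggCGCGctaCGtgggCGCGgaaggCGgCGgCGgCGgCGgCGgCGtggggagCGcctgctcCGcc
THNSL1 (chr10:25016362-25016611, plus strand): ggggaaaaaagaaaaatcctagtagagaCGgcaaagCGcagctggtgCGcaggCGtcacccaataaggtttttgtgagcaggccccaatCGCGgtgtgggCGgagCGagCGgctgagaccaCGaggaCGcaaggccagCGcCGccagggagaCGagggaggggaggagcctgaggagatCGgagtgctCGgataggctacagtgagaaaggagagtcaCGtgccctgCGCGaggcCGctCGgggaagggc
RTN4 (chr2:55050599-55050848, minus strand): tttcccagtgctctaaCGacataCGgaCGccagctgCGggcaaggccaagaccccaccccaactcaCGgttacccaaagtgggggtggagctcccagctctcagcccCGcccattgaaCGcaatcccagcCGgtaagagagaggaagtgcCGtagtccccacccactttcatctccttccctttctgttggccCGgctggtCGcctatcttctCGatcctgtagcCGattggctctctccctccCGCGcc
DNAJB4 (chr1:78004689-78004938, plus strand): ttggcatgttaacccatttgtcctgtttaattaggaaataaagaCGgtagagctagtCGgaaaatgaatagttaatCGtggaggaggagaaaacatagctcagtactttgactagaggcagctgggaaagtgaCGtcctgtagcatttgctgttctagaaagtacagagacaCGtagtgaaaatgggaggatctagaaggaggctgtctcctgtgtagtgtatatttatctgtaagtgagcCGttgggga
DLG2 (chr11:84923422-84923671, minus strand): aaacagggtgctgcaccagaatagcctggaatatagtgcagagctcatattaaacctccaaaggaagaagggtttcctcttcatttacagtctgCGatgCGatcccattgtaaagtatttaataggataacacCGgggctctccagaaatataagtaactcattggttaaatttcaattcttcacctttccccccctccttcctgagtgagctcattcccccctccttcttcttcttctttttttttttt

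The TENM3 sequence holds 35 CpG dinucleotides and 77.2% G or C, and the region around it reached 1401 tags and a fold enrichment of 12.8 at its strongest summit. A tag here is 1 count in the pile-up at a summit, recovered from the deposited values, and the fold enrichment is the authors' ratio of tags to the local background. The PDE10A sequence holds 31 CpG, the PSD2 sequence 30, the THNSL1 sequence 21 and the RTN4 sequence 15. The DLG2 sequence holds 3 CpG and 41.6% G or C, and its region reached 241 tags. The DNAJB4 sequence holds 6 CpG and 42.8% G or C, yet its region had 731 tags and a fold enrichment of 15.02, so a CpG-poor start was not always a weak one.

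A wide distal region held an annotated start far more often than a narrower one did. Over the chromosomes for which starts were used, 258 of 1538 wide distal regions held at least 1 annotated start (16.8%, 95% Wilson interval 14.99 to 18.7%). Among narrower regions it was 755 of 33842 (2.23%, 2.08 to 2.39%), and the difference was 14.5 percentage points (95% Newcombe interval 12.7 to 16.5). The difference was positive on 21 of 21 autosomes, with a mean over autosomes of 13.7 ± 5.20 percentage points (SD). It was smallest on chromosome 14, at 3.55, and largest on chromosome 17, at 23.2. A wider region has more room for a start, so a window of 1 size was also used. A start, inside the region or not, lay within 200 bp of the strongest summit in 181 of 1538 wide regions (11.8%, 10.3 to 13.5%) and in 616 of 33842 narrower ones (1.82%, 1.68 to 1.97%), a difference of 9.95 percentage points (8.43 to 11.7).

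The share that held a start rose at each step of width and of tag count. It was 0.611% for regions under 500 bp, 1.18% from 500 up to 1000 bp, 13.7% in the narrowest class of wide regions and 31.5% in those of 2000 bp or more. When the wide regions were divided into 4 equal groups by tags, the shares were 3.69%, 7.44%, 17.9% and 38.1% from the weakest group to the strongest. Narrower regions with tags in the same ranges had shares of 0.820%, 1.46%, 3.61% and 18.0%. At like tag counts the wide regions thus held a start more often in each of the 4 ranges, and the 95% intervals of the pairs did not overlap. Starts were counted anywhere in a region here, and a wider region has more room for one. The window of 1 size was not applied within these steps of width and tags.

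**Figure D1:**
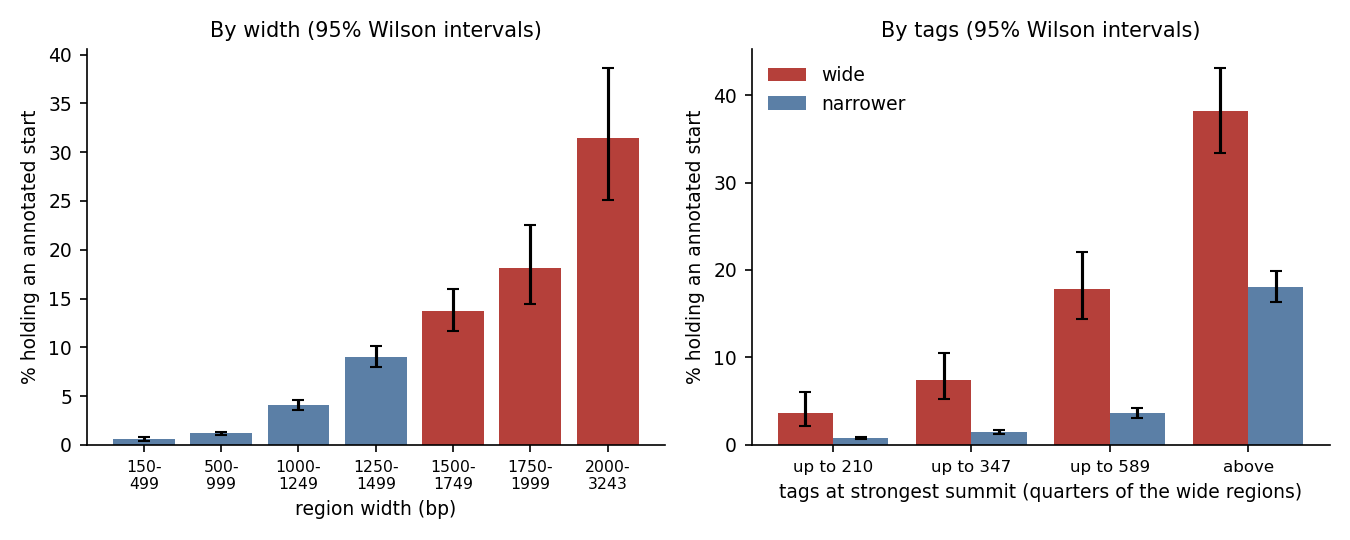
Share of distal regions that hold an annotated start (y axis, percent), by region width in bp (left) and by tags at the strongest summit in the 4 tag ranges of the wide regions (right). Bars are shares with 95% Wilson intervals, red for wide and blue for narrower regions; the share climbs from 0.611% in the narrowest class to 31.5% in the widest, and wide regions lie above narrower ones in every tag range.

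The starts inside wide distal regions were CpG-rich. In the 300 bases around the start (250 before and 50 after, 1 start per region), the median number of CpG was 29 for the 258 wide regions. It was 13 for the 755 narrower regions and 3 for 1841 starts more than 5 kb from gene ends that lay in no region. Starts inside wide regions near gene ends, within 5 kb, had a median of 31. The share of starts with at least 15 CpG was 73.3% in wide distal regions, 47.0% in narrower ones and 8.31% in no region. Median G or C content followed the same order, at 68.8%, 57.7% and 46.3%. By median CpG the starts in wide distal regions were closer to those of wide regions at gene ends than to those of narrower distal regions. The share with at least 15 CpG was still higher in wide regions near gene ends, at 92.0% against 73.3%.

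**Figure D2:**
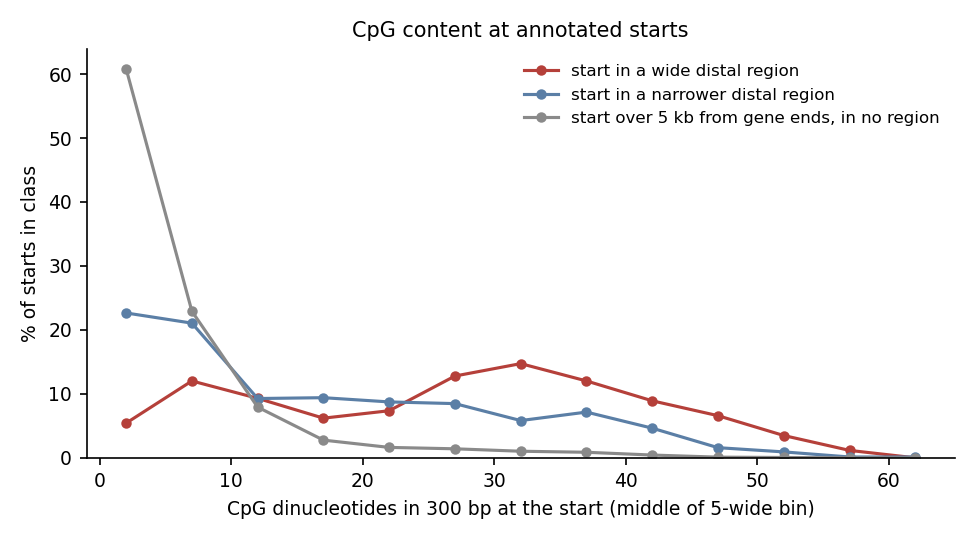
CpG dinucleotides in 300 bases at an annotated start (x axis, bins of 5) against the percent of starts in each class (y axis). Starts in wide distal regions (red, median 29) have a low rise of 12.02% at 5 to 9 CpG and a main one of 14.7% at 30 to 34; starts in narrower distal regions (blue, median 13) and in no region (grey, median 3) are commonest under 5.

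Short sequence words were counted on both strands of the same 300 bases, as a description only. CAGATG, an E-box of the kind bound by proneural factors such as NGN2, was present at 7.36% of starts in wide distal regions (19 of 258), 14.3% in narrower ones and 14.7% of all 34942 starts. It was present at 7.14% of starts in wide regions near gene ends and 21.6% of starts in no region, so a low share was not particular to the distal regions. CAGCTG, another E-box, was present at 21.7% in wide distal regions, 24.2% in narrower ones and 17.9% of all starts. TATAAA, the core of the TATA box, was present at 5.81%, 7.15% and 11.6%. CCCNNGGG was present at 23.6%, 17.0% and 19.0%. The intervals for CAGATG in wide and narrower regions, 4.76 to 11.2% and 11.99 to 17.0%, did not overlap, and those for CAGCTG and TATAAA did. Windows at region summits were not analysed here.

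The open stretch reached further into the transcribed side of the start. The median distance from the start to the edge of a wide region was 739.5 bp upstream and 1032 bp downstream, and 178 of 258 regions were longer downstream (69.0%, 63.1 to 74.3%). In narrower regions the medians were 495 and 559 bp, and 55.9% were longer downstream (52.3 to 59.4%). The strongest summit of a wide region sat at a median of -42 bp from the start (negative is upstream), and 70.2% lay within 200 bp of it, against -46 bp and 81.6% in narrower regions. In 66 wide regions there were several annotated starts, up to 6 in 1 region, and in 101 narrower ones. The start used in those was the start nearest the strongest summit, so closeness to that summit is partly built in there. Of 3086 annotated starts more than 5 kb from any outer gene end, 40.3% lay in an accessible region and 11.3% in a wide one, against 51.4% and 17.4% of all distinct starts.

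Wide distal regions with a start had more tags than those without. Their median was 661.5 tags against 304.5, and their median fold enrichment was 7.91 against 6.15. Their median width was 1740 against 1652 bp, and they had a median of 5 summits against 4. The ranges overlapped widely, from 145 to 2829 tags with a start and from 83 to 2237 without. Most wide distal regions, 1280 of 1538, held no start of the RefSeq start table. That table has entries for 27305 of 59675 genes, and a gene with no entry counts here as having no start.

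Wide distal regions had more tags at their strongest summit than narrower ones, a measure that comes from the same pile-up of fragments as the width and is given as a description. The median was 347.5 tags (quartiles 210 and 589.5) against 190 (139 and 288), a log2 difference of 0.87 that was positive on 22 of 22 autosomes (mean 0.84 ± 0.18, SD). In 942 of 1612 wide regions (58.4%) the strongest summit exceeded the upper quartile of the narrower regions, while 20.04% lay under the narrower median. Wide regions within 5 kb of a gene end had 828 tags, so the distal ones stood between those and the narrower distal regions.

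The fold enrichment differed less than the tags. Its median was 6.41 against 5.13, a log2 difference of 0.32, positive on 21 of 22 autosomes (mean 0.30 ± 0.12, SD). The local background was 52.9 tags in wide regions and 34.7 in narrower ones, and it sat at its lowest value, 29.2 tags, in 4.65% of wide against 27.9% of narrower regions. Over all summits in place of the strongest of each region, the fold difference was -0.26, so the direction depends on that choice. Chromosome 21 was the exception by region, at -0.09, with 21 wide regions. Its 4 wide regions below 15 Mb had a median fold of 2.54, and the 17 above had 5.83 against 5.22 in the narrower regions there. The deposited score was at its highest value, 1000, in 87.0% of wide and 66.8% of narrower regions.

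**Figure D3:**
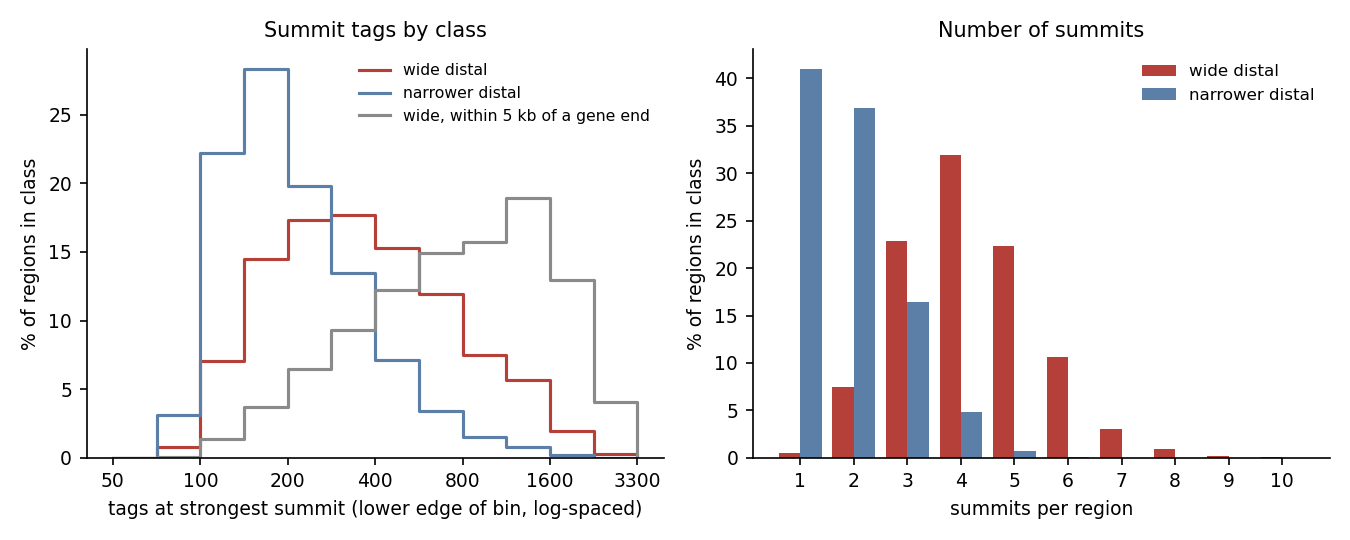
Left, tags at the strongest summit (x axis, log-spaced bins) against the percent of regions in each class (y axis) for wide distal, narrower distal and wide regions within 5 kb of a gene end; the medians are 347.5, 190 and 828. Right, summits per region (x axis) against the percent of wide (red) and narrower (blue) distal regions; 41.0% of narrower regions and 0.558% of wide ones have 1 summit.

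Nearly all wide distal regions were chains of summits. Only 9 of 1612 had 1 summit (0.558%), 514 had 4 (31.9%), and the most was 10. Of narrower regions 41.0% had 1 summit and 22.1% had 3 or more, against 92.0% of wide ones. The regions were chosen by width, and a longer region has room for more summits. The mean was 4.19 summits over a mean width of 1730 bp in wide regions, and 1.88 over 800 bp in narrower ones. Adjacent summits in a wide region lay a median of 302 bp apart (quartiles 240 and 423) and in a narrower region 260 bp (224 and 335). A narrower region has less room for a long gap. The peak in that spacing was from 200 to 300 bp in both classes.

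The heights of the summits followed their number. The second summit held a median of 0.673 of the tags of the first, against 0.556 in narrower regions with several summits. In regions with 3 summits the ratio was close in both classes, at 0.607 and 0.602, and with 4 summits it was 0.659 and 0.668. With 2 summits it was lower in the 120 wide regions, at 0.468, than in the 13168 narrower ones, at 0.523. The strongest summit was a median of 262.5 bp from the middle of a wide region and 79.5 bp in narrower ones. That distance has more room in a wider region. The strongest summit fell in the central 1 of 3 equal parts in 53.8% of wide and 69.5% of narrower regions. Those shares include regions with 1 summit, 0.558% of wide and 41.0% of narrower ones. They were not compared at equal numbers of summits. Wide regions near gene ends had similar values, with a spacing of 292 bp and a second summit at 0.659 of the first.

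The width itself ran from 1500 to 3243 bp, with a median of 1662 bp and quartiles of 1569 and 1820 bp. Only 184 regions reached 2000 bp (11.4%) and 16 reached 2500 bp. Together they covered 2.79 Mb, 8.90% of the length of all distal regions. More than 5 regions were exactly 1500 bp wide, and the first 5 by chromosome name had 164 to 689 tags. Their fold enrichment was 3.73 to 8.33. Others of that width went beyond this range, with 1546 tags inside UNC5C and at most 110 inside CDH13. The first 5 at 1499 bp, taken the same way, had 147 to 351 tags and 4.11 to 10.4. Median tags were 298 and median fold 6.55 from 1250 to 1499 bp, against 321 and 6.46 from 1500 to 1749 bp. By those medians no step in strength marked the limit.

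The widest distal region lay inside PDE10A, at chr6:165660395-165663637, and had 10 summits over 3243 bp. From its left edge the summits held 266, 452, 261, 271, 272, 258, 304, 614, 469 and 346 tags. The strong ones stood near both ends, and the printed start lay close to the rightmost. The next widest, of 2902 bp, lay inside KLF12, a zinc finger repressor gene, at chr13:74133466-74136367, with 8 summits of 323 to 958 tags and 2 annotated starts. DAB1, which encodes the adaptor of the Reelin pathway that guides neuronal migration, held a region of 2787 bp with 10 summits of 147 to 612 tags and 4 annotated starts.

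The other regions among the 10 widest had 4 to 9 summits. KCNN2, the gene of a small-conductance calcium-activated potassium channel, held a region of 2697 bp with an annotated start and summits of 835, 532, 1210 and 273 tags. PLXNA4, a semaphorin receptor gene of axon guidance, held one of 2568 bp with an annotated start and 164 to 436 tags. Regions inside PALM2AKAP2 (2753 bp), SOX6 (2719 bp) and GSE1 (2635 bp) held no annotated start. SOX6 is a transcription factor gene of neuronal and glial lineages, and its region had 8 summits of 216 to 784 tags. A region of 2574 bp, 5.40 kb outside the zinc finger gene KLF9, had 1074 tags at its strongest summit and 253 at its weakest. One of 2880 bp on chromosome 21, chr21:9246080-9248959, was 112.5 kb from the nearest coding gene, LOC101927345, and had 89 to 291 tags.

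**Figure D4:**
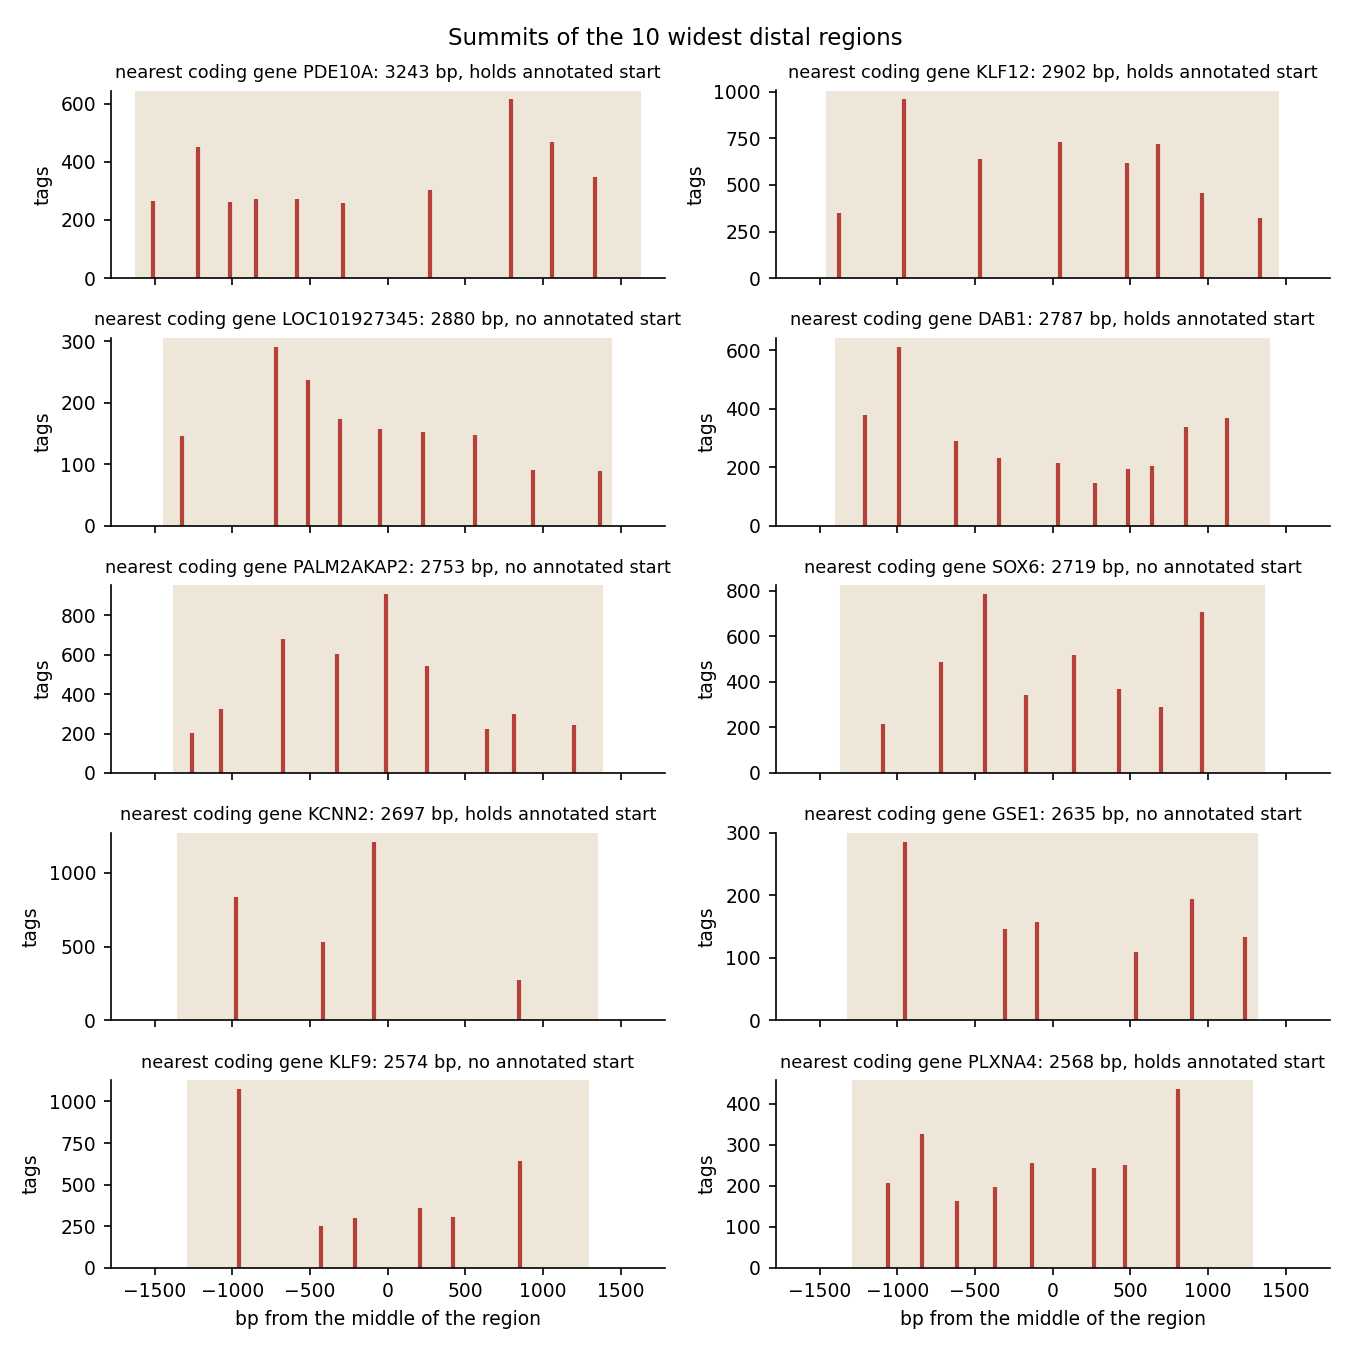
Summits of the 10 widest distal regions, 1 panel each: x axis, distance from the middle of the region in bp; y axis, tags at the summit, on a scale of its own per panel. Shading marks the region, titles give the nearest coding gene and the width; 5 of the 10 hold an annotated start, and the strongest summit often stands off centre.

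None of the 10 widest regions was among the 10 with the highest fold enrichment or the 10 with the most tags. The region inside THNSL1, at chr10:25015830-25017482, led both other rankings with a fold enrichment of 15.4 and 2829 tags, and its 5 summits held 421, 1527, 2829, 1333 and 255 tags. That region holds annotated starts of THNSL1 and of its neighbour ENKUR. It was the only member in both of those rankings. Annotated starts were held by 5 of the 10 widest, 6 of the 10 highest by fold and 8 of the 10 highest by tags.

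Among the highest by fold, starts were held by regions at KDM2A, a histone demethylase gene (15.2), DNAJB4 (15.02), HERC3, a ubiquitin ligase gene (14.3), BDH1, a ketone body dehydrogenase gene (14.2), and ZC4H2, a zinc finger gene (14.2). Those without a start lay nearest ZNF486 (15.1), GRIN1 (14.7), PCDHB1 (14.5) and POLR3B (14.0). GRIN1 encodes the obligatory subunit of NMDA receptors, and its region, chr9:137129080-137130605, was 9.31 kb outside the gene with summits of 328, 1167 and 551 tags. In the KDM2A region 1 summit of 1691 tags stood above 3 of 168 to 225. In the BDH1 region the strongest summit lay 999 bp downstream of the start, and the summit nearest the start had 169 tags and a fold of 1.71.

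Among the highest by tags, RTN4 had 2536, MIB1, a ubiquitin ligase gene of Notch signalling, 2347, G3BP2, a stress granule gene, 2303, and the zinc transporter gene SLC39A10 2244. PDE4DIP had 2135, RPS6KA2, a ribosomal S6 kinase gene, 2112, and FMC1-LUC7L2, a readthrough that spans a splicing factor gene, 2077. All 7 of these held an annotated start. CROCC, the rootletin gene, had 2084 tags in a region 8.78 kb outside it that held no start. PDE4DIP and CROCC have near-identical copies in the genome, so their tags are uncertain.

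Wide distal regions lay inside coding genes more often than narrower ones. Of 1612 wide regions 932 had their middle inside a protein-coding gene (57.8%, 55.4 to 60.2%), against 17946 of 35670 (50.3%, 49.8 to 50.8%). The difference was 7.51 percentage points (5.02 to 9.95) and positive on 18 of 22 autosomes (mean 7.23 ± 7.57, SD). On the chromosomes with starts it was 7.22 (4.68 to 9.73), and -0.20 there without the regions that hold an annotated start. A start this far from outer gene ends lies inside a gene by construction, so leaving such regions out could only lower the share inside genes. Inside coding genes, 257 of 888 wide regions held a start (28.9%), against 4.21% of narrower ones. A further 7.94% of wide regions lay inside a lncRNA gene only and 34.1% outside all annotated genes, against 10.6% and 38.5%.

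Within their host gene the wide regions stood slightly nearer the start. Among 768 wide regions in coding genes of known strand, the median position was 0.480 of the gene length from its start, against 0.520 in 14623 narrower ones. Without the regions that hold a start the medians were 0.512 and 0.527. The host genes were long in both classes, with medians of 209.2 and 222.7 kb. Outside coding genes, where the strand of the nearest one was known, 47.9% of 541 wide regions lay on its start side (43.7 to 52.1%). Of 14018 narrower ones 52.8% did (52.0 to 53.6%). These sets include regions inside lncRNA genes.

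Distance to the gene end did not separate the classes. The median was 21.55 kb for wide and 21.89 kb for narrower regions, and the difference was positive on 11 of 22 autosomes. The share of distal regions that were wide was 4.06% at 5 to 10 kb, 4.70% at 10 to 20 kb, 4.44% at 20 to 50 kb, 4.21% at 50 to 100 kb and 3.38% at 100 to 200 kb. By chromosome the share ran from 2.80% on chromosome 18 to 5.88% on chromosome 21 among autosomes. The farthest class had the lowest share, and its interval, 2.71 to 4.20%, did not reach the 4.32% of the whole.

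Wide distal regions were mostly solitary. Another wide distal region lay within 50 kb of 151 of 1612 (9.37%, 8.04 to 10.9%), against 2743 narrower regions (7.69%, 7.42 to 7.97%), a difference of 1.68 percentage points (0.32 to 3.22) that was positive on 15 of 22 autosomes. When neighbours within 50 kb were joined, 1461 stood alone and 69 formed pairs. There were 3 groups of 3, at BCAR3, VGLL4 and IQSEC1, and 1 group of 4 at PSD2, and these were named after their counts were seen. At the 2000 bp limit 0 of the 184 regions had a neighbour of that width, which allows a share of up to 1.63%. Any other accessible region was within 10 kb of 33.7% of wide and 39.6% of narrower regions.

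By nearest coding gene, 1355 genes had at least 1 wide distal region, 204 had at least 2, 38 at least 3 and 11 at least 4. GSE1, which encodes a partner of histone deacetylase complexes, and BCAR3, which encodes an adaptor of integrin signalling, had the most, with 6 each. Those were 6 of 28 distal regions at GSE1 and 6 of 14 at BCAR3, and all lay inside the gene. At GSE1 the widths were 1563 to 2635 bp and the strongest summits 280 to 1374 tags, with no annotated start. At BCAR3 the widths were 1673 to 2038 bp and the summits 228 to 579 tags, and 1 of the 6 held annotated starts.

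PSD2 had the highest share among the 15 genes with the most wide regions, 4 of 6. The 4 lay at chr5:139733332-139734851, chr5:139764060-139766322, chr5:139786997-139788837 and chr5:139795231-139796908, within 63.6 kb. Their strongest summits held 151, 665, 735 and 329 tags, and the last holds the CpG-rich start printed above. FARS2, the mitochondrial phenylalanine tRNA synthetase gene, had 4 of 10, all inside the gene, with 123 to 1108 tags. TENM3 had 4 of 55 and DLG2 4 of 53, so their counts stood against many more narrower regions. All 4 at DLG2 lay inside the gene, against 2 of the 4 at TENM3, where 1 was 1389 kb outside.

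BCOR and TBL1XR1 encode corepressor subunits and had 4 wide regions each, mostly outside the gene. At BCOR 3 of the 4 were 362 to 532 kb outside it. At TBL1XR1 all 4 were 158.1 to 409.8 kb outside it, and 1 of them reached 1367 tags. RAPGEF2, an exchange factor gene for the small GTPase Rap, had 4, of which 2 lay inside. PTPRN2, which encodes a dense-core vesicle protein, and DPP6, which encodes an auxiliary subunit of voltage-gated potassium channels, had 4 each, all inside the gene. The strongest at DPP6 had 766 tags and a fold enrichment of 13.2. PLXNA4, the ARF regulator gene AGAP1, the vesicle tethering gene TRAPPC9 and SSBP3, whose product works with LIM-domain factors, had 3 each.

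**Figure D5:**
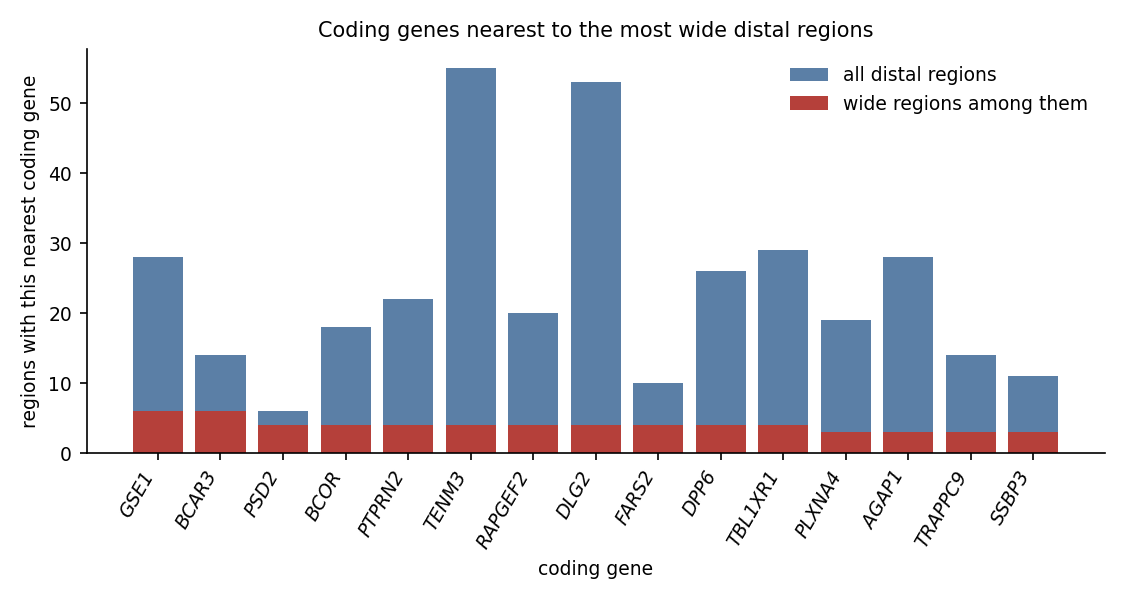
Distal regions (blue, y axis, count) and the wide ones among them (red) for the 15 coding genes nearest to the most wide distal regions (x axis). GSE1 and BCAR3 have 6 wide regions each, PSD2 has 4 of 6, and TENM3 and DLG2 have 4 of 55 and 4 of 53.

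Marker gene lists were set beside the labelled cell type, with a background of 66.7% of all 20033 coding genes open at an end. An accessible summit was found no more than 1 kb from an outer end in 17 of 20 pan-neuronal genes, 10 of 14 proneural genes, 5 of 12 glial genes, 4 of 10 pluripotency genes and 2 of 12 non-neural tissue genes. Progenitor genes were open at an end in 15 of 17, GABAergic genes in 9 of 12 and glutamatergic genes in 9 of 12. Neuronal transcription factor genes were open in 42 of 54 and axon guidance and adhesion genes in 31 of 35. Accessibility at gene ends thus did not separate neurons from progenitors or transmitter types. It says nothing of how many cells of each kind were present.

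The share of wide regions at genes of neuronal lists was near the 4.32% of all distal regions. Of 543 distal regions nearest a listed neuronal transcription factor gene 26 were wide (4.79%, 3.29 to 6.92%). Those 26 were 1.61% of wide regions, against 1.45% of narrower ones, a difference of 0.16 percentage points with an interval from -0.36 to 0.91. By autosome it was positive on 6 of 22, with a mean of -0.17 ± 1.80 (SD). It could be positive only on autosomes with a wide region nearest a listed gene, so that count gives no direction. ZFHX4, a zinc finger homeobox gene, had 3 of 14. FOXP1, a forkhead gene, had 2 of 15, both inside the gene. RUNX1T1, a corepressor gene, had 2 of 20, and SOX11, a SOX factor gene of young neurons, had 2 of 23, both outside the gene.

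Axon guidance and adhesion genes had 22 wide regions of 649 (3.39%, 2.25 to 5.08%). ROBO1, a receptor gene for Slit repellents, had 3 of 32, with 183 to 955 tags, and PLXNA4 3 of 19. PLXNA2, another semaphorin receptor gene, had 2 of 28, and EFNA5, an ephrin gene, 2 of 40, of which the stronger had 1230 tags and a fold enrichment of 12.6. The cadherin genes CDH8 and CDH13 had 2 of 32 and 2 of 14. The 2 at CDH13 were weak, with 100 and 110 tags.

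The other lists had few wide regions. Pan-neuronal genes had 6 of 188, with 2 at ELAVL2, an RNA-binding protein gene, of 766 and 1061 tags. Glutamatergic genes had 3 of 101, with 1 at GRIN1 and 2 inside GRIN2B, the gene of another NMDA receptor subunit, of 113 and 406 tags. Progenitor genes had 4 of 106 and glial genes 1 of 34. Pluripotency genes had 3 of 21, of which 2 were outside DPPA4, with 327 and 404 tags, and the interval of that share, 4.98 to 34.6%, rests on 3 regions. Proneural genes had 0 of 21, which allows a share of up to 14.3%, and GABAergic genes 0 of 24, which allows up to 12.5%. Non-neural tissue genes had 0 of 2, which sets no limit.

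MAPT, the tau gene that the study was built around, had 17 distal regions within 1 Mb, of which 1 was wide. It lay inside WNT3, a WNT ligand gene, at chr17:46770857-46772516, was 1660 bp across and held summits of 222, 473 and 443 tags. Its fold enrichment was 6.36, close to the median of the wide distal regions. It held no annotated start.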

How the data were processed

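The deposited list gives for each summit of the pooled samples an interval, a score, a fold enrichment (a linear ratio) and −log10 p values, all as the authors deposited them, and its name in the labels marks it as the optimal set by irreproducible discovery rate. The genome is hg38 per the submitters' processing notes, and the aligner and peak caller are not given in the sources used here. Intervals were merged by their bounds and represented by the summit with the highest −log10 p. Tag counts were recovered from the deposited fold and −log10 p with a pseudocount of 1, and 100% of 145092 entries gave a whole number to within 0.001 units of −log10 p. A self-test on simulated data recovered all tag counts.

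Gene ends and starts came from RefSeq tables for GRCh38.p14 (59675 genes, 34942 distinct starts), and 198 of 198 listed genes matched. Annotated starts are not analysed here for chromosome 8. No differences were tested, since the list pools the samples. Intervals are 95% intervals by the Wilson or Newcombe method and cover counting error only, and regions are not independent replicates. Neighbouring regions share chromosomes, so the spread over autosomes is given beside them. A share of 0 is given with 3 counts of the total as its limit. The depth of each sample is unknown, and the labels' protocols call the samples biological replicates. Members and lists were chosen with earlier results of these data known. Named are the 10 widest, the 10 highest by fold and by tags, those near MAPT, the 15 coding genes with the most wide regions and listed genes with 2 or more; some regions and genes that this rule selects are not reported here. Alternatives varied the width limit, position, gene set, distances, score, neighbour distance and the narrower regions. Leaving out regions with annotated starts, all alternatives for the share with a start, and the window at summits were chosen after seeing the data. Computations used Python 3.11.15, numpy 2.4.6, scipy 1.17.1, pandas 2.3.3 and matplotlib 3.10.9.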

Additional observations from a re-analysis of the deposited data

How the results depend on the processing

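For 8 results 73 values were recomputed under other settings. Of these, 51 stayed within the interval or the spread of the reported value, 17 moved beyond it and 5 changed sign. The share of wide regions became 14.6% at a limit of 1200 bp, 0.494% at 2000 bp, 5.08% with coding genes only, 5.56% at the highest score, 9.16% over all summit entries and 3.725% without regions that hold a start. Leaving out those regions also left out chromosome 8, without which the share was 4.35%. The log2 fold difference became 0.15 at the highest score and -0.26 over all entries. The log2 tag difference became 1.18 at 2000 bp, 0.69 at the highest score and 0.34 over all entries. The distance difference became 0.22 kb without regions that hold a start. It became 1.56 kb against only those narrower regions with at least 210 tags, the lower quartile of the wide ones. That filter set a floor and did not match the tags of the classes. The difference inside coding genes became 4.01 percentage points at 1200 bp, 17.9 at 2000 bp and -0.197 without regions that hold a start. The difference in wide neighbours became -0.914 at 2000 bp, and that in neuronal factor genes 1.27. The start difference became 9.22 at 1200 bp, 28.7 at 2000 bp, 21.2 with coding genes only and 12.7 with that tag floor. The causes were not tested. No replicate could be left out, because the list has no value per sample. No paired analysis was possible because there is 1 group and 1 pooled list. The planned comparisons of G or C content and of CAGATG at summits were not run.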
